A study of Drosophila melanogaster with 12 samples.

Results

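Cytoplasmic ribosomal protein genes were followed in Drosophila melanogaster testes of 4 genotypes, with attention to the duplicated copies of some of them. The members were all probe sets of the array whose single gene symbol starts with RpL or RpS, a rule that takes in the RpLP stalk genes and leaves out the mitochondrial mRpL and mRpS genes. They came to 47 probe sets of 41 genes, out of 18769 probe sets and 11982 genes with a symbol of their own. Of the 41 genes, 29 were general forms, 9 were duplicated copies of a ribosomal protein gene (called paralogs here), and 3 (RpL24-like, RpL7-like and RpLP0-like) encode relatives of ribosomal proteins whose yeast homologs act in ribosome assembly. A further 51 genes whose symbols start with RpL or RpS in the Release 6 gene table have no probe set under their symbol alone and were not analysed here, among them RpL22, RpS10b, RpS19a and RpL34b.

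RNA was taken from adult testes at 1 day of age (flies kept at 25 °C), dissected free of seminal vesicles and accessory glands, with about 250 ng of total RNA per array and 3 Affymetrix arrays per genotype. The labels give the wild-type arrays as y,w, while the methods name a red,e data set among the published ones, and the labels were followed here. Med22RNAi males carried a hairpin against the Mediator subunit Med22 and UAS-Dicer2, both under Bam-Gal4, which is active in late spermatogonia and early spermatocytes. The aly mutants were aly2/aly5P and lack a subunit of tMAC, the testis form of a MuvB-type complex, and the sa mutants were sa1/sa2 and lack one of the tTAFs, the testis homologs of TBP-associated factors. Germ cells of all 3 arrest as mature primary spermatocytes, so their testes hold few or no later stages, and in RNA of whole testes fewer cells of a type and less RNA per cell cannot be told apart. The paper saw different chromatin and nucleoli in aly spermatocytes. It proposes that aly cells may stop earlier than Med22RNAi or sa cells, or have somewhat different, perhaps broader defects. The Med22RNAi arrays were made for the study as biological replicates. The methods name red,e, aly and sa data as published before, and whether this covers the y,w arrays is not stated. Knockdown and array set thus cannot be told apart against aly and sa, and against wild type this is unknown. No array measured the driver alone. Nothing states that the other 9 came from separate animals, so p-values measure the spread between these arrays, which may be technical.

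The cytoplasmic ribosome is built from a large subunit (RpL proteins) and a small subunit (RpS proteins) on rRNA, and a stalk of RpLP0, RpLP1 and RpLP2 on the large subunit recruits elongation factors. Most ribosomal protein genes of the fly are single genes used in every cell, and their transcripts are among the most abundant of a growing cell. Some have a second copy that is used mainly in the germ line or the testis, of which RpL22-like in the male germ line is the best known. Of the 9 measured paralogs, 7 lie on an autosome while their general form is X-linked in the Release 6 gene table (among them RpL22-like, RpL37-2, RpS10a, RpS19b, RpS28a and RpS28-like). RpL10Aa and RpL34a have autosomal general forms. Among the 29 general forms, 3 were X-linked (RpL17, RpL37-1 and RpS28b).

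Signals are given as deposited, as log2 values from GCRMA, on which the lowest value is 2.11 and the highest 15.96. The medians of the arrays differed by genotype. They were 3.07 to 3.11 on aly arrays, 3.66 to 3.80 on wild-type arrays, 3.91 to 4.02 on sa arrays and 4.15 to 4.25 on Med22RNAi arrays. Setting all arrays to one median would move every log2 fold change of Med22RNAi against wild type by -0.46, of aly by 0.64 and of sa by -0.24. The sa probe set was lower in sa testes by 4.99 on the log2 scale (adjusted p = 5.91e-08 from limma), and Med22 itself was not analysed here. Adjusted p-values are those of limma over all 18769 probe sets in each comparison.

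Every measured general ribosomal protein gene had a higher signal in the arrested testes than in wild type, while the paralogs split. The probe sets of RpL22-like and RpL37-2 rose by at least 4-fold in Med22RNAi, aly and sa, and those of RpL10Aa, RpS28a and RpS28-like fell by at least 4-fold in each. In Med22RNAi 40 of 47 probe sets rose at an adjusted p under 0.05, against 28.3% of all probe sets, and 4 fell, against 17.0%. In aly 41 rose, against 30.1%, and 4 fell, against 15.2%. In sa 41 rose, against 28.0%, and 4 fell, against 14.3%. The shares were larger among the 3100 probe sets with a mean log2 level of at least 10, a limit chosen after seeing the data. Of these, 57% rose in Med22RNAi, 63.3% in aly and 64.9% in sa, and 26.1%, 21.4% and 20.2% fell. With a 4-fold limit added, 7 members were higher in Med22RNAi (11.3% of all probe sets were), 7 in aly (14.3%) and 5 in sa (9.52%), and 4 were lower in each (9.02%, 10.3% and 7.69%). The rises were mostly smaller than 4-fold, so that with arrays set to one median the count of 4-fold rises went to 2 in Med22RNAi and to 29 in aly. That scaling moves every log2 fold change by -0.46 in Med22RNAi and by 0.64 in aly. No share over all probe sets under it is given here, so these counts cannot be read against the shares above.

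The 29 general forms all rose, by amounts that differed between genes. Taking for each gene the probe set with the highest mean, all 29 passed the adjusted p in each genotype and had all 3 arrays above the 3 wild-type arrays, which was so for 31.1% of all probe sets in Med22RNAi, 32.0% in aly and 29.6% in sa. Their median log2 fold change was 1.44 in Med22RNAi (range 0.53 to 2.80), 1.44 in aly (0.31 to 1.86) and 1.46 in sa (0.39 to 1.81), while the median over all probe sets was 0.00 in each. With arrays set to one median it was 0.98, 2.08 and 1.22. Among the 3100 probe sets with a mean log2 level of at least 10, a limit chosen after seeing the data, the median was 0.70 in Med22RNAi, 0.99 in aly and 0.95 in sa. Array by array, the median log2 signal of the 29 genes was 13.17, 12.87 and 13.27 in wild type, and the arrested testes ran from 14.44 to 14.66 (aly), 14.51 to 14.60 (Med22RNAi) and 14.53 to 14.60 (sa). The wild-type arrays were the lowest 3 of the 12, with no overlap with any other genotype.

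**Figure D1:**
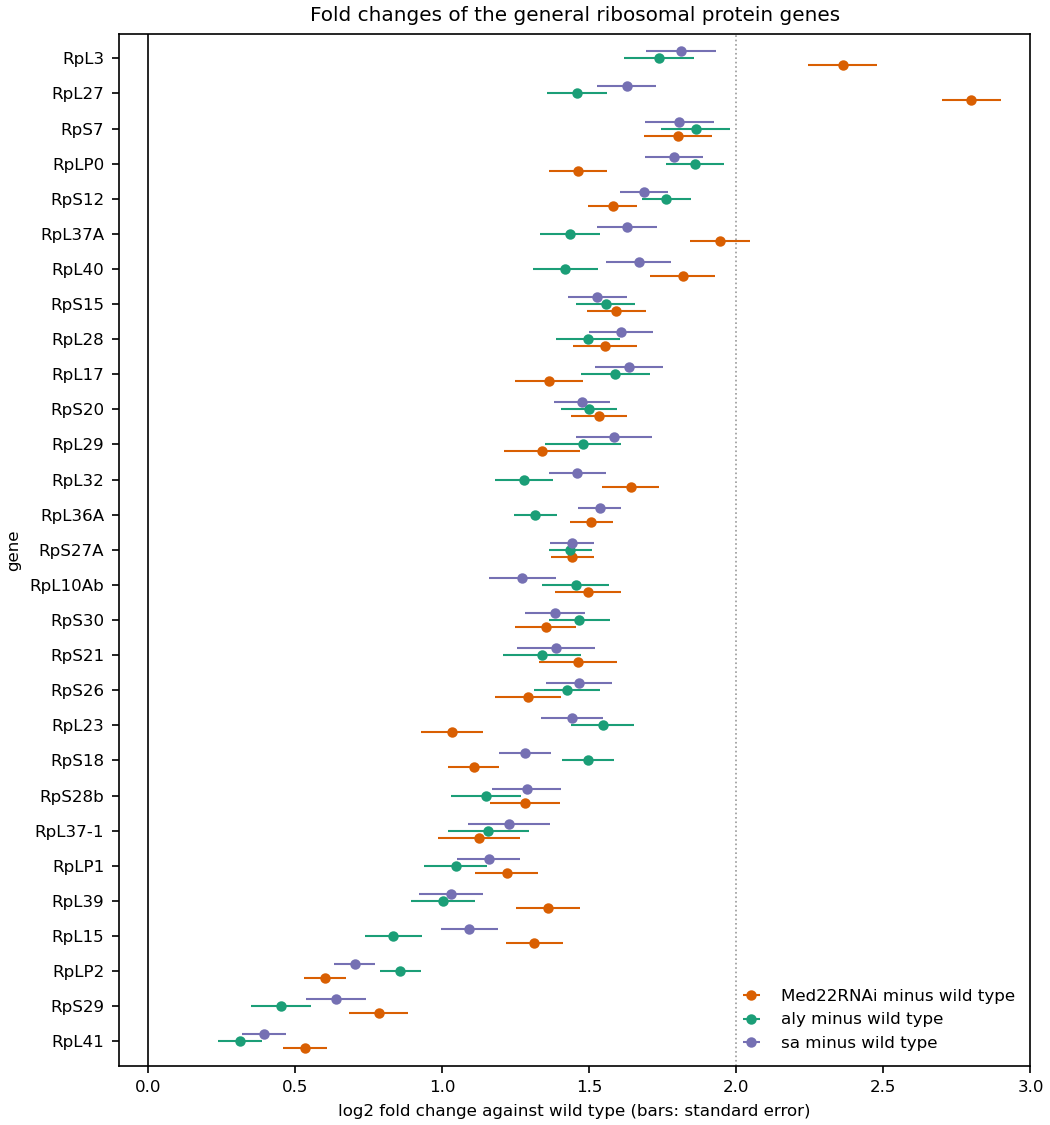
Log2 fold change against wild type (x axis) of the 29 general ribosomal protein genes (y axis, 1 probe set per gene), with points for Med22RNAi, aly and sa, bars for the standard error of the limma fit and a dotted line at the 4-fold limit. All points lie above 0, RpL27 and RpL3 in Med22RNAi are the only ones past 4-fold, and RpL41 is lowest in each genotype.

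Large and small subunits did not separate. In Med22RNAi the median log2 fold change was 1.50 over 15 genes of the large subunit and 1.44 over 11 of the small subunit, and it was 1.43 and 1.47 in aly and 1.54 and 1.44 in sa. The 3 stalk genes were less uniform. RpLP0, whose protein anchors the stalk, rose by 1.46, 1.86 and 1.79 on the log2 scale in Med22RNAi, aly and sa, RpLP1 by 1.22, 1.05 and 1.16, and RpLP2 by 0.60, 0.86 and 0.70. The RpLP2 rise in Med22RNAi was lost with arrays set to one median (log2 fold change 0.14, adjusted p = 0.156 from limma).

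RpL27 and RpL3, the latter a protein of the peptidyl transferase center, were the general forms with the largest rise in Med22RNAi. RpL27 had log2 signals of 11.79, 11.39 and 11.65 on the wild-type arrays, 14.39, 14.49 and 14.35 in Med22RNAi, 13.01, 12.99 and 13.20 in aly and 13.24, 13.31 and 13.15 in sa. The Med22RNAi arrays thus lay above all others, and the aly and sa arrays overlapped each other. The rise was 6.96-fold in Med22RNAi (log2 fold change 2.80 ± 0.10, SE), 2.75-fold in aly and 3.09-fold in sa, with adjusted p-values from limma of 1.43e-07, 1.89e-06 and 2.09e-06. RpL3 had log2 signals of 11.85, 11.56 and 11.91 in wild type, 14.12, 14.23 and 14.04 in Med22RNAi, 13.41, 13.52 and 13.60 in aly, and 13.58, 13.77 and 13.39 in sa. Its log2 fold changes were 2.36 ± 0.12 (SE), 1.74 and 1.81 in those genotypes. Both genes overlap another gene in the Release 6 table, Idh3g for RpL27 and an antisense RNA for RpL3. Such overlaps are not particular to them, since general forms with smaller rises, such as RpL23, RpL29 and RpL41, have them too.

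The next largest rises in Med22RNAi were those of RpL37A (1.94), RpL40 (1.82), which is made as a fusion with ubiquitin, and RpS7 (1.80), as log2 fold changes. In aly the largest among the general forms were RpS7 (1.86), RpLP0 (1.86), RpS12 (1.76), RpL3 (1.74), RpL17 (1.59) and RpS15 (1.56). In sa they were RpL3 (1.81), RpS7 (1.81), RpLP0 (1.79), RpS12 (1.69), RpL40 (1.67) and RpL17 (1.63). RpL41, a very short protein of the large subunit, changed least, with log2 signals of 14.87, 14.92 and 15.09 in wild type and 15.19 to 15.53 over the other 9 arrays. Its arrays did not overlap with wild type, and its log2 fold changes were 0.53, 0.31 and 0.39, of which those in Med22RNAi (0.07) and sa (0.15) no longer passed with arrays set to one median. Across the 29 genes the log2 fold change was lower where the wild-type signal was higher (Pearson r = -0.81 in Med22RNAi, -0.68 in aly and -0.77 in sa, a description over genes of the same arrays whose axes share the wild-type values). RpL41 also had the highest wild-type mean, at 14.96.

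Marker genes of other cells moved as well. Beside the counts below, 28.3%, 30.1% and 28.0% of all probe sets rose in Med22RNAi, aly and sa, and 17.0%, 15.2% and 14.3% fell. The summed signal of 6 spermatogonial markers, as a log2 value, was 10.95 to 11.15 on the wild-type arrays. The Med22RNAi arrays spanned 12.24 to 12.55, the aly arrays 12.08 to 12.16 and the sa arrays 11.35 to 11.79. Of the 6, 4 rose and 1 fell in Med22RNAi (bgcn, log2 fold change -0.74), 4 rose in aly and 3 in sa. The largest rise was that of bam (log2 fold changes 4.44, 5.04 and 3.73), while vas was near the lowest value on all arrays. In aly chinmo had a log2 fold change of -1.08 but did not pass (adjusted p = 0.122 from limma). The sum over 7 genes of early spermatocytes spanned 14.32 to 14.64 on wild-type arrays, 15.36 to 15.45 with Med22 knocked down, 15.94 to 16.11 for aly and 14.75 to 15.17 for sa. Of these 7 genes, 1 rose, 1 fell and 5 did not pass in Med22RNAi. In aly 6 rose and 1 fell, and in sa 3 rose and 2 fell. Their median log2 signal was 9.44 to 9.56 in Med22RNAi and 9.52 to 9.80 in sa, against 10.62 to 10.96 in wild type. The list holds aly and sa, so in those mutants its sums, medians and counts include the mutated gene itself. The sa gene is 1 of the 2 that fell in sa (log2 fold change -4.99). The aly gene is 1 of the 6 that rose in aly (0.90). Med22RNAi testes also had more summed signal of 4 muscle genes (11.86 to 12.48 against 9.58 to 10.62 in wild type). The same held for 8 hemocyte genes (12.58 to 12.96 against 10.02 to 10.29, with He near the lowest value on all arrays). For muscle genes the range was 8.76 to 9.69 in aly and 9.54 to 10.44 in sa, and for hemocyte genes it was 10.20 to 11.30 and 11.14 to 11.48. Gene by gene, 3 muscle genes rose in Med22RNAi and 1 did not pass. In aly and sa 0 muscle genes rose, and sls fell (log2 fold changes -4.38 and -1.43). Of the 8 hemocyte genes, 5 rose and 3 did not pass in Med22RNAi. In aly 3 of them rose and srp fell (-3.15), and in sa 5 rose. Of 6 cyst and hub markers, 3 rose in Med22RNAi, none rose in aly or sa (0 in each at an unadjusted limma p under 0.05) and 1 fell in sa, while tj and upd1 were near the lowest value throughout. Summed signal of 7 accessory gland genes varied within wild type, from 13.68 to 16.61. It spanned 13.54 to 15.53 for the Med22RNAi arrays, 12.57 to 13.12 for aly and 13.64 to 14.83 for sa. The part of these cells in the rise of the ribosomal protein genes was not tested.

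Of the paralogs, RpL22-like changed most upward. On the wild-type arrays its log2 signals were 5.35, 5.16 and 5.68. They were 12.80, 13.06 and 13.05 in Med22RNAi, 12.61, 12.72 and 12.56 in aly, and 11.22, 10.44 and 11.21 in sa. No array of the arrested testes came near the wild-type arrays, and the sa arrays lay below those of Med22RNAi and aly. The rise over wild type was 190.2-fold in Med22RNAi (log2 fold change 7.57 ± 0.22, SE, adjusted p = 6.1e-08 from limma), 151-fold in aly (7.24) and 47.1-fold in sa (5.56). The signal of the general form RpL22 was not analysed here.

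RpL37-2, the autosomal copy of the RpL37 gene, rose more than its X-linked general form RpL37-1. RpL37-2 had log2 signals of 10.98, 11.08 and 11.46 in wild type, 13.44, 13.54 and 13.54 in Med22RNAi, 14.33, 14.30 and 14.49 in aly and 14.31, 14.58 and 14.28 in sa. Its rise was 5.04-fold in Med22RNAi, 9.23-fold in aly and 9.33-fold in sa (log2 fold changes 2.33, 3.21 and 3.22, each ± 0.13, SE). RpL37-1 went from 12.54 ± 0.29 in wild type (mean log2 signal, SD, n = 3) to 13.67 ± 0.05, 13.70 ± 0.18 and 13.77 ± 0.07, which are log2 fold changes of 1.12, 1.16 and 1.23. The copy thus rose less in Med22RNAi than in either mutant, and the general form by a similar amount in all 3.

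RpL34a rose by 1.67, 1.90 and 1.86 on the log2 scale in Med22RNAi, aly and sa, and RpS19b, known from germline stem cells, by 1.37, 1.74 and 1.25, close to the median of the general forms. RpS10a, another copy known from the germ line, had log2 signals of 10.30, 10.49 and 11.004 in wild type, 10.99, 11.19 and 11.15 in Med22RNAi, 12.14, 12.20 and 12.70 in aly, and 11.93, 12.16 and 11.74 in sa. The Med22RNAi and wild-type arrays overlapped, and RpS10a was the only one of the 41 genes that did not pass in Med22RNAi (log2 fold change 0.51 ± 0.21, SE, adjusted p = 0.0831 from limma). Without wild-type replicate 3 it passed there, at a log2 fold change of 0.72 (adjusted p = 0.0145). In aly and sa it rose by 1.75 and 1.35.

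RpL10Aa fell where its general form RpL10Ab rose. The log2 signals of RpL10Aa were 12.92, 13.36 and 13.59 in wild type, 11.51, 10.49 and 11.11 in Med22RNAi, 2.40, 2.52 and 2.58 in aly and 9.20, 9.71 and 9.54 in sa. The groups did not overlap, and in aly the signal was near the lowest value of the arrays. It was 4.74-fold lower than wild type in Med22RNAi (log2 fold change -2.25 ± 0.27, SE, adjusted p = 9.76e-05 from limma) and 13.95-fold lower in sa (-3.80). In aly, where all arrays were under a log2 of 3, it was at least 1249-fold lower, a bound computed with aly set to 3. RpL10Ab had mean log2 signals of 12.96 ± 0.11 in wild type (SD, n = 3), 14.46 ± 0.11 in Med22RNAi, 14.41 ± 0.21 in aly and 14.23 ± 0.10 in sa.

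RpS28a and RpS28-like, both copies of the small subunit gene RpS28b, also fell. RpS28a had log2 signals of 10.80, 11.06 and 11.40 in wild type, 5.81, 4.86 and 5.71 in Med22RNAi, 3.98, 4.68 and 5.19 in aly and 6.23, 6.93 and 6.28 in sa. All arrested testes were far below wild type, while the Med22RNAi and aly arrays overlapped. Against wild type it was 49.3-fold lower in Med22RNAi (log2 fold change -5.62 ± 0.37, SE), 88.3-fold lower in aly and 24.3-fold lower in sa. RpS28-like had log2 signals of 11.59, 11.77 and 12.42 in wild type, 9.62, 8.28 and 9.19 in Med22RNAi, 4.64, 4.22 and 3.89 in aly and 7.33, 7.49 and 8.17 in sa. It was 7.42-fold lower in Med22RNAi (-2.89 ± 0.40, SE), 204-fold lower in aly and 19.2-fold lower in sa. The general form RpS28b rose from a mean log2 signal of 13.45 ± 0.24 (SD, n = 3) to 14.73 ± 0.06 in Med22RNAi, 14.60 ± 0.16 in aly and 14.74 ± 0.05 in sa. RpS28-like overlaps CG3769 and RpS28b overlaps CG15317 in the Release 6 table, and whether a probe set also binds RNA of an overlapping gene or of another copy was not tested.

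**Figure D2:**
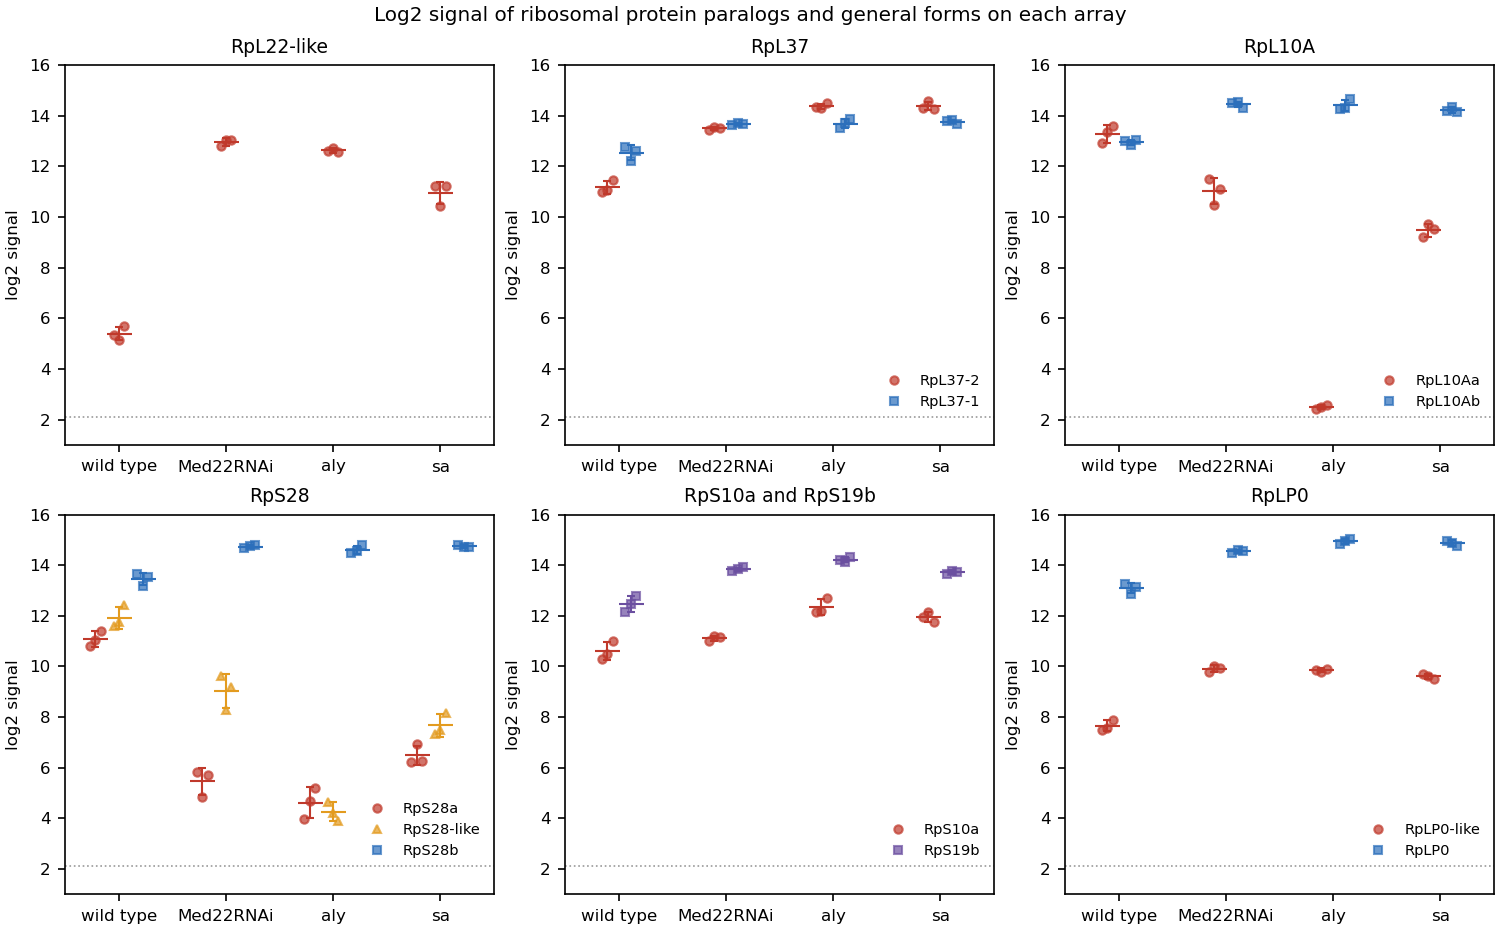
Log2 signal (y axis) of paralogs and of the general forms RpL37-1, RpL10Ab, RpS28b and RpLP0 on each of the 12 arrays, by genotype (x axis). Points are arrays, horizontal bars with whiskers are means and SD (n = 3), and the dotted line is the lowest value of the arrays. RpL22-like rises from 5.40 in wild type to 12.97 in Med22RNAi, RpL10Aa, RpS28a and RpS28-like fall in the arrested testes, and the general forms rise in every panel that holds one.

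The change of each paralog relative to its own general form was tested on the difference of the log2 signals on each array, whose change between genotypes is free of any shift of a whole array. Of 14 pairs, 5 had both genes measured. In an exact permutation test over all 369600 assignments of the 12 arrays to 4 genotypes (F statistic), every pair differed among genotypes, with p = 6.49e-05 (the smallest the test can give) for RpL10Aa minus RpL10Ab and for RpS28-like minus RpS28b, 0.00026 for RpS28a minus RpS28b, 0.000325 for RpLP0-like minus RpLP0 and 0.00039 for RpL37-2 minus RpL37-1. After Benjamini-Hochberg adjustment over the 5 pairs the largest value was 0.00039. A single genotype against wild type, with 3 arrays each, cannot go below 0.10 in such a test and was not tested.

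The copy of RpL37 gained on its general form in each arrested genotype (Med22RNAi 1.21, aly 2.05, sa 1.99 on the log2 scale). The difference was -1.37 ± 0.37 in wild type (SD, n = 3), -0.16 ± 0.03 in Med22RNAi, 0.68 ± 0.13 in aly and 0.62 ± 0.12 in sa. RpL10Aa lost 3.74 against RpL10Ab in Med22RNAi and 5.07 in sa, as differences of -3.42 ± 0.56 and -4.75 ± 0.22 against 0.33 ± 0.35 in wild type. In aly, where RpL10Aa was under a log2 of 3 on all arrays, it lost at least 11.74, a bound with aly set to 3, and with that bound the exact permutation p was again 6.49e-05. RpS28a lost against RpS28b by 6.90, 7.61 and 5.89, and RpS28-like by 4.17, 8.82 and 5.55. In these 4 pairs the arrays of each arrested genotype did not overlap with wild type.

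Because the general form of 7 of the 12 paralogs and relatives has no probe set of its own here, paralogs were also set against the median of the 29 general forms on the same array, a measure added after seeing the data and given without a test. On it RpL22-like gained most (Med22RNAi 6.11, aly 5.82, sa 4.09), and RpL37-2 gained 0.88, 1.78 and 1.75 (log2 scale, against wild type). RpL34a gained 0.21, 0.48 and 0.39, and its sa arrays overlapped with wild type. RpS19b changed by -0.09, 0.32 and -0.22, with Med22RNAi and sa overlapping with wild type. RpS10a changed by -0.95 in Med22RNAi, where the arrays lay below wild type, and by 0.33 in aly and -0.12 in sa, where they overlapped. RpL10Aa, RpS28a and RpS28-like lost 3.70 (RpL10Aa in Med22RNAi) or more, and RpL10Aa in aly lost at least 11.71, a bound with aly set to a log2 of 3.

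**Figure D3:**
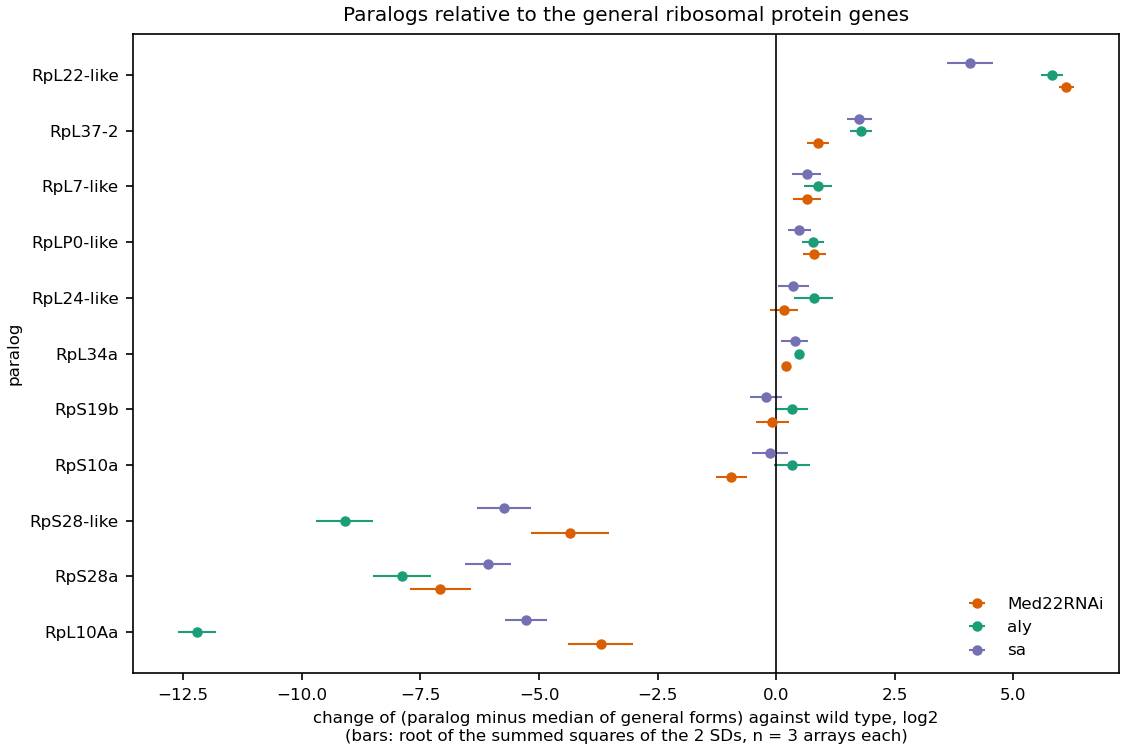
Change against wild type of the log2 signal of each paralog minus the median of the 29 general forms on the same array (x axis) for 11 paralogs and relatives (y axis). Points are Med22RNAi, aly and sa, and bars are the root of the summed squares of both SDs (n = 3 arrays each). RpL22-like lies between 4.09 and 6.11, RpS19b and RpL34a lie near 0, and RpL10Aa, RpS28a and RpS28-like lie below -3, with RpL10Aa in aly drawn at its measured value though it is only a bound.

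The 3 genes related to assembly factors all rose. RpL7-like, whose yeast relative acts in maturation of the large subunit RNA, had log2 signals of 9.998, 10.28 and 10.34 in wild type and 12.27 to 12.63 over the other 9 arrays, with log2 fold changes of 2.103, 2.297 and 2.109. RpLP0-like, related to yeast Mrt4, which holds the place of the stalk on the immature subunit, had log2 signals of 7.47, 7.58 and 7.90 in wild type and 9.51 to 10.03 over the others. Its log2 fold changes were 2.26, 2.20 and 1.96. RpL24-like, related to yeast Rlp24, had log2 signals of 10.81, 11.07 and 11.33 in wild type and 12.65 to 13.55 over the others, and it rose by 1.61, 2.21 and 1.83. The difference RpLP0-like minus RpLP0 was above wild type by 0.80 in Med22RNAi and 0.34 in aly. In sa, where the arrays overlapped with wild type, it was above by 0.17. When the arrays were quantile normalized again it was -0.17 in aly and -0.33 in sa.

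The 3 arrested genotypes were also compared with each other. With the 4-fold limit 2 members were higher in Med22RNAi than in aly (10.2% of all probe sets were) and 0 were lower (6.52%), 1 was higher in Med22RNAi than in sa (4.57%) and 0 were lower (4.27%), and 0 were higher in aly than in sa (2.96%) and 2 were lower (7.32%). At an adjusted p under 0.05 without a fold limit, 11 members were higher in Med22RNAi than in aly (20.1% of all probe sets) and 8 lower (21.0%). The count of 4-fold differences came from RpL10Aa, RpS28-like and RpL22-like. RpL10Aa was at least 263-fold higher in Med22RNAi than in aly (adjusted p = 3e-08 from limma) and at least 89.5-fold higher in sa than in aly, and it was 2.94-fold higher in Med22RNAi than in sa. RpS28-like was 27.6-fold higher in Med22RNAi than in aly (adjusted p = 1.17e-05 from limma) and 10.7-fold higher in sa than in aly. Its signal was 2.58-fold higher in Med22RNAi than in sa (adjusted p = 0.0268), a call lost without Med22RNAi replicate 1 (0.0929) or 3 (0.0835), or without sa replicate 1 (0.092) or 2 (0.0784). RpS28a was 3.63-fold lower in aly than in sa (adjusted p = 0.00447 from limma), a call lost with quantile normalization applied again (log2 difference -0.75, adjusted p = 0.166), and its difference between Med22RNAi and the mutants did not pass.

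Among the paralogs that rose, RpL22-like was 4.04-fold higher in Med22RNAi than in sa (adjusted p = 0.000126 from limma) and 3.20-fold higher in aly than in sa. Without Med22RNAi replicate 2 or 3, or without sa replicate 2, the first difference fell under 4-fold, to a log2 difference of 1.75 at the lowest. RpL37-2 was 1.83-fold lower in Med22RNAi than in aly and 1.85-fold lower than in sa. RpS10a was 2.36-fold lower in Med22RNAi than in aly and 1.78-fold lower than in sa, the latter lost without sa replicate 2 (adjusted p = 0.0501 from limma). RpL24-like was 1.51-fold lower in Med22RNAi than in aly (adjusted p = 0.0247), a call lost without any one of the Med22RNAi arrays or without aly replicate 2 or 3. RpS19b was 1.40-fold higher in aly than in sa (adjusted p = 0.0282), a call lost without aly replicate 1 or 3, or sa replicate 1 or 3.

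The general forms differed little among the arrested testes, and the count of differences turned on the scaling. Between Med22RNAi and aly 9 of 29 were higher in Med22RNAi, 4 were lower and 16 did not pass, with a median difference of 0.04 on the log2 scale. Over all probe sets 20.1% were higher and 21.0% lower there. Between Med22RNAi and sa, where 16.7% of all probe sets were higher and 16.6% lower at the same adjusted p, 4 were higher, 2 were lower and 23 did not pass. Between aly and sa none of the 29 passed in limma (median difference -0.05; 1 was higher and 2 lower at an unadjusted p under 0.05), against 16.8% higher and 14.5% lower over all probe sets. With arrays set to one median, 0 were higher and 28 lower in Med22RNAi than in aly, 2 were higher and 9 lower than in sa, and all 29 were higher in aly than in sa. That scaling moves every log2 difference by -1.10 for Med22RNAi minus aly, -0.22 for Med22RNAi minus sa and 0.88 for aly minus sa. The counts under it follow in large part from this shift, and no share over all probe sets is given beside them. On the deposited values RpL27 had the largest differences among the general forms. In Med22RNAi it lay 1.34 on the log2 scale above aly and 1.17 above sa (adjusted p = 6.34e-06 and 3.19e-05 from limma). With arrays set to one median its difference from aly was 0.24 and did not pass (adjusted p = 0.0885 from limma). The difference of RpL3 between Med22RNAi and aly, 0.62, turned to -0.48 with that scaling.

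A few genes had several probe sets, and those of RpS29 disagreed. Probe sets 1629867_a_at and 1626693_at of RpS29 rose, with log2 fold changes of 0.78 and 1.25 for Med22RNAi, 0.45 and 0.97 for aly and 0.64 and 1.21 for sa. Probe set 1625248_at of the same gene fell, from log2 signals of 9.55, 9.88 and 10.30 in wild type to 5.97, 5.48 and 5.87 in Med22RNAi, 6.04, 6.01 and 6.08 in aly and 7.12, 7.33 and 7.86 in sa. Its groups did not overlap with wild type, it was 17.6-fold lower in Med22RNAi, 14.6-fold lower in aly and 5.55-fold lower in sa, and it was the only probe set outside the paralogs that fell. RpS29 overlaps an antisense RNA, CR31514, in the Release 6 table. Which transcript 1625248_at measures was not tested.

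**Figure D4:**
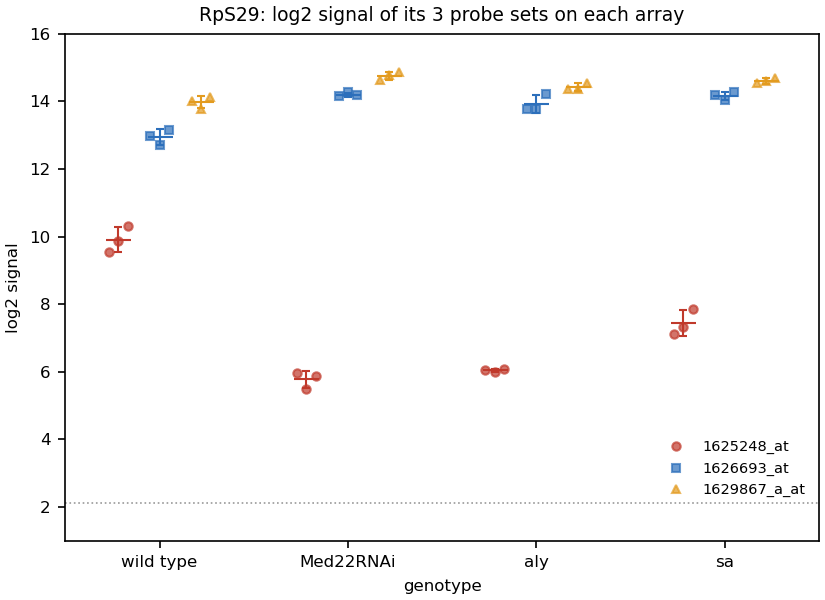
Log2 signal (y axis) of the 3 probe sets of RpS29 on each of the 12 arrays by genotype (x axis). Points are arrays, bars with whiskers are means and SD (n = 3), and the dotted line is the lowest value of the arrays. The set 1625248_at falls from 9.91 in wild type to 5.77 in Med22RNAi, while the other 2 sets rise.

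The second probe set of RpS30, a protein made as a fusion with a ubiquitin-like domain, had log2 fold changes of 1.58, 2.77 and 2.32 in Med22RNAi, aly and sa, and its brighter probe set 1.35, 1.47 and 1.38. A dim probe set of RpL3 (1625889_at) rose by 1.34, 1.92 and 0.99, and its rise in sa was lost without sa replicate 1 (adjusted p = 0.0528 from limma) or 3 (0.0505), or without wild-type replicate 2 (0.0659) or 3 (0.0685). A further probe set of RpL3 (1634685_at) and one of RpS7 (1627181_at) were near the lowest value in all genotypes and showed no change there. The probe set that the annotation gives to CG34164 and RpL7-like together, left out of the members, had log2 signals of 2.64 to 2.88 in wild type and 5.82 to 6.89 over the other arrays.

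Other genes of translation give the setting of these rises. Rack1, a protein of the small subunit outside the naming rule, rose too (Med22RNAi 1.76, aly 1.44, sa 1.61 on the log2 scale). Of 6 measured genes of elongation and release, 5 rose in Med22RNAi, 4 rose and 1 fell in aly, and 4 rose in sa. Over all probe sets 28.3%, 30.1% and 28.0% rose, and 57%, 63.3% and 64.9% of those with a mean log2 level of at least 10. The median log2 fold change of the 6 genes was 1.04, 0.82 and 1.16, against 0.70, 0.99 and 0.95 in that brighter set. Elongation factor genes eEF1delta (2.34, 1.44 and 1.95) and eEF1gamma (1.87, 1.64 and 1.77) rose most, eEF5 rose by 1.36, 0.53 and 0.91, and the release factor eRF3 rose by 0.73 in Med22RNAi and fell by 0.96 in aly. The release factor eRF1 did not pass in any genotype, with log2 fold changes of -0.04, -0.02 and 0.07.

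Of 20 measured genes of ribosome assembly and rRNA synthesis, 17 rose and 1 fell in Med22RNAi, 17 rose and 1 fell in aly, and 19 rose and 1 fell in sa, with median log2 fold changes of 1.83, 2.41 and 1.70. Beside these and the mitochondrial counts below, 28.3%, 30.1% and 28.0% of all probe sets rose, and 17.0%, 15.2% and 14.3% fell. Polr1A, the largest subunit of RNA polymerase I, rose by 4.52, 4.23 and 2.25, Nopp140, a nucleolar chaperone, by 3.60, 1.01 and 1.23, and Surf6 by 3.10, 3.63 and 1.83. The largest rises of the list in aly (4.87) and sa (3.81) were those of genes not named here. The gene that fell in each genotype was Sbds, which acts in a late step of large subunit maturation, with log2 fold changes of -0.97, -1.19 and -1.40. Of 69 mitochondrial ribosomal protein genes, 61 rose and 2 fell in Med22RNAi, 66 rose and 1 fell in aly, and 66 rose and 1 fell in sa, with medians of 1.37, 2.36 and 1.68. In aly that median lay above the one of the cytoplasmic general forms (1.44), and in Med22RNAi it lay close to it.

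**Figure D5:**
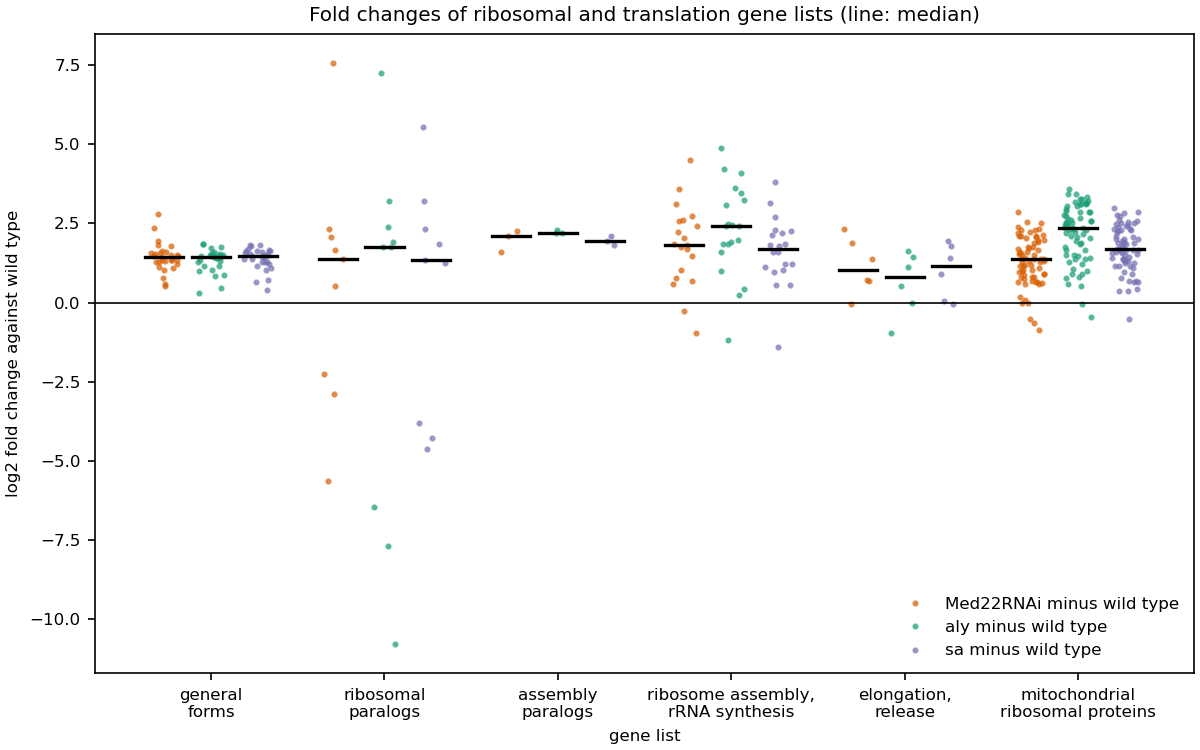
Log2 fold change against wild type (y axis) of single genes, 1 point a gene, in 6 gene lists (x axis) for Med22RNAi, aly and sa, with a black line at each median. General forms lie between 0.31 and 2.80 with medians of 1.44, 1.44 and 1.46, while the 9 ribosomal paralogs spread from RpL10Aa in aly, drawn at its fitted value though it is only a bound, to RpL22-like at 7.57 in Med22RNAi.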

How the data were processed

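The values are those the authors deposited, as log2 signals made with GCRMA, which corrects background, normalizes arrays and gives 1 value per probe set. No version is given in the sources used here. Of 18952 rows, 183 control probe sets were removed and no filter on low signal was set. Gene names came from the platform annotation (1 symbol for 13647 probe sets, several for 402, none for 4720), and 3 probe sets that list a member with another gene were left out. All 41 member genes were found in the Release 6 gene table. limma 3.58.1 in R 4.3.3 (lmFit, eBayes) took all 12 arrays into 1 model of genotype means (checked on simulated data), with Benjamini-Hochberg adjustment in each comparison. A 4-fold call needed an adjusted p under 0.05 and at least 4-fold. Groups with all arrays under a log2 of 3 were set to 3 for bounds. Where a gene has more than 1 probe set, the brightest stands for it. Within a genotype arrays correlated at 0.983 to 0.997. The named genes are all paralogs but 1, which is not reported here, and their general forms, the stalk genes, the 5 largest changes each way among the other members in each comparison, up to 4 genes of each list, and a few more named after their values were seen (such as RpL41, RpS30, eRF1 and Rack1). The members and lists were chosen with earlier results of these data known. Differences in level between probe sets were not tested as differences in amount of RNA. Such levels were used to pick the brightest probe set, for sums and medians over lists, and for the correlation with wild-type signal. No promoter or protein sequences were used here, so a planned motif count was not run. Only 3 arrays per genotype limit the precision. Python 3.11.15 read the tables and drew the figures.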

Additional observations from a re-analysis of the deposited data

Results flagged for a closer look

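RpL10Aa and RpS28-like differed between the arrested genotypes by the direct comparison of the fit, past 4-fold. On the log2 scale RpL10Aa was higher in Med22RNAi than in aly by 8.54 (adjusted p = 3e-08 from limma), and the difference aly minus sa was -6.99 (adjusted p = 1.21e-07). All 3 aly arrays of RpL10Aa were near the lowest value, so both sizes depend on that value. RpS28-like was higher in Med22RNAi than in aly by 4.78 (adjusted p = 1.17e-05 from limma), and its difference aly minus sa was -3.42 (adjusted p = 0.000166).

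RpL22-like was higher in Med22RNAi than in sa by 2.01 (adjusted p = 0.000126 from limma). The values with 1 array left out ran from 1.75 to 2.14. Med22RNAi and sa come from different sets of arrays, which cannot be told apart from the genotype. Groups of 3 arrays were not tested for outlying arrays.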

How the results depend on the processing

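With arrays set to one median, the 4-fold rises went from 7 to 2 in Med22RNAi and from 7 to 29 in aly, and members lower in Med22RNAi than in aly from 0 to 2, higher in Med22RNAi than in sa from 1 to 0, and higher in aly than in sa from 0 to 1. These counts follow in part from the shift of every probe set, and no share over all probe sets under that scaling is given. The median log2 fold change of the general forms became 0.98 in Med22RNAi, 2.08 in aly and 1.22 in sa. The same scaling turned RpS7 (1627181_at) to -0.44 in Med22RNAi and RpL3 (1634685_at) to 0.63 in aly, both dim, and RpL3 between Med22RNAi and aly to -0.48. Quantile normalization applied again gave 1 member lower in Med22RNAi than in sa, and turned RpLP0-like minus RpLP0 to -0.17 in aly and -0.33 in sa. It also moved RpS28a between aly and sa to -0.75 (adjusted p = 0.166 from limma). Leaving out 1 array gave 0 to 1 members 4-fold higher in Med22RNAi than in sa. RpS10a passed in Med22RNAi with dim probe sets removed (adjusted p = 0.0422 from limma) and with quantile normalization again (0.0475). Of the counts, medians and pair values under the alternatives, 649 were labelled the same, 12 moved and 2 reversed. That label lets a count change within a set ratio and a median by less than the SD between arrays. Of the values of single genes and of paralogs against the general median, 3820 were labelled the same, 33 weaker, 7 stronger, 13 moved and 3 reversed. The cause of these changes was not tested.

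The deviations of arrays of the same replicate number had correlations from -0.36 to 0.35, with 5 of 18 above 0.1. Arrays of different numbers were not set beside them, so these values cannot decide whether the numbers pair the samples. With the replicate number as a block, 7, 7 and 5 members rose by 4-fold in Med22RNAi, aly and sa and 4 fell in each, and no other count or pair changed its call. The second probe set of a gene could not be used in the pairs, since none of their genes has one. Signals near 2.11 carry no order, and the part of signals near the highest value, such as that of RpL41, in the size of a rise was not tested.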
